A study of Mus musculus with 2 samples.

Results

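The genes described here are 10 components of the ribbon synapse, the output synapse of photoreceptors: Ctbp2, Bsn, Pclo and Rims2 of the ribbon and active zone, Cacna1f, Cacna2d4 and Cabp4 of the calcium channel complex, and Slc17a7, Stx3 and Cplx4 of vesicle loading and fusion. They were chosen by name, and every probe set whose platform gene symbol is one of them alone was taken. This gave 25 of 45101 probe sets and 10 of the 18193 genes that have a probe set of 1 symbol. The RNA came from eye cups of mice at postnatal day 13, the back of the eye left when cornea, lens and optic nerve are removed. One pool combined RNA of 6 wild-type animals and the other that of 6 Mfsd2a KO animals, in equal shares per animal. Each pool was hybridised to 1 Mouse 430 2.0 array (Affymetrix), so the series holds 2 arrays. Mfsd2a encodes a transporter that carries lysophosphatidylcholine with docosahexaenoic acid into brain and eye. The labels do not give the strain, the deleted part of Mfsd2a or the sex of the animals, and they name no driver or conditional allele.

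Rods and cones release glutamate continuously in darkness and release less of it in light. The ribbon, a plate built mainly of the protein RIBEYE, tethers synaptic vesicles above the active zone, where an L-type calcium channel with the pore subunit CaV1.4 admits the calcium that drives release. In mouse retina the ribbon synapses of photoreceptors mature during the second postnatal week, shortly before and around eye opening. Bipolar cells also carry ribbons and use several of the same proteins, so a signal from whole eye cups is not from photoreceptors alone.

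Values are probe set intensities on a linear scale, and a difference is the log2 intensity of the array labelled knockout minus that of the wild-type array. Since each genotype was hybridised once, no test was possible; every difference is one between 2 pools, without a p-value. A spread within the 2 arrays was taken from probe sets that read the same gene, whose log2 differences had a pooled SD of 0.089. It is called the technical SD below, although sets that read different transcripts of a gene can add to it. It pools bright and dim sets above the floor given below, so it is not specific to one level. Error that all sets of a gene share, such as that of a pool or a hybridisation, is not part of it. A gene was represented by its brightest probe set, the one with the highest mean log2 intensity of the 2 arrays. It counted as measured if at least one array gave a value at or above a floor, the median of that array with its 64 control probe sets left out, 94.2 in wild type and 93.4 on the other array. Of all genes, 11568 were measured. Intensities of different probe sets depend on their probes and were not set against each other.

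The pools were checked first. Mfsd2a itself read 181 and 244, so its log2 difference was 0.43, which goes against the label unless its 1 probe set lies outside the deleted part; where the probes lie was not analysed here. Every direction below therefore rests on the label. Markers of other cells and of neighbouring tissues also differed between the pools, among their measured members: lens genes had a median of 0.22 (7 of 8 above 0, summed intensity 2477 and 2885), pigment epithelium genes of -0.28 (6 of 7 below 0, 35456 and 33422), skeletal muscle genes of -0.23 (7 of 9 below 0, 3673 and 3329) and cornea and conjunctiva genes of -0.40 (7 of 7 below 0, 7809 and 7380). Most of the last sum comes from the widely expressed gene Tkt (6357 and 6248), and the other 6 genes summed to 1452 and 1132. No measured marker was at 0, and 42.4% of all measured genes were below 0. Their part in the values of the synaptic genes was not tested. Rod markers were all present in the tissue as labelled, with 11 of the 11 read by a probe set of their own above the floor, among them the rod transducin gene Gnat1 (16823 and 15928).

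The ribbon's own gene is shown first with its sequence, because 2 products share it. Ctbp2 encodes the transcriptional co-repressor CtBP2 and, from an internal promoter, RIBEYE, whose carboxy-terminal domain is nearly the same as CtBP2. The RefSeq promoter table (build GRCm38.p6) lists 2 starts of Ctbp2 on the minus strand of chromosome 7, 66.6 kb apart, and does not say which product each one makes. The 250 bases before each start are given 5′ to 3′, with capitals for the core of the site bound by CRX, the photoreceptor transcription factor (TAATCC, or GGATTA on the other strand).
Ctbp2 upstream start, chr7:133081861-133082110 (minus strand): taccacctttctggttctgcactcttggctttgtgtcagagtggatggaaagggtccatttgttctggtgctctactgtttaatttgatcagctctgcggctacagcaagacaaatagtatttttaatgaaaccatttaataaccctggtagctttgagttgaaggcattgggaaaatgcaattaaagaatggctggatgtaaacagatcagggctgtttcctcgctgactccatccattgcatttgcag
Ctbp2 downstream start, chr7:133015248-133015497 (minus strand): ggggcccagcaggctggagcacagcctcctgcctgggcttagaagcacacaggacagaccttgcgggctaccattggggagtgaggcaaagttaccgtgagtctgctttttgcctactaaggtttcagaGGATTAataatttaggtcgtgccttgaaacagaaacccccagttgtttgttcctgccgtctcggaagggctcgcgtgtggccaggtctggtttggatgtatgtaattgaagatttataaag
The downstream window holds 1 match, whose first base lies 121 bases before the start, and the upstream window holds 0. Windows of 300 bases, from 250 before to 50 after a start, were searched on both strands for 6 of the genes, 7 windows in all. The only other match was in Stx3, at base 31 after its start. The windows of Bsn, Pclo, Cacna1f and Slc17a7 had 0 matches. Of the 32851 windows in the table, 7.06% hold these letters, and a match is a description of letters, not a bound site.

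Between the pools the 10 ribbon synapse genes differed by less than 1.1-fold in their brightest probe sets, before any trend with intensity was removed. Of the 25 probe sets, 0 were 1.5-fold apart in either direction, where 0.226% of all 34945 probe sets with 1 symbol were. At the smaller size of 1.2-fold, 1 of the 25 was apart, a set of Pclo, against 5.95% of all probe sets. All 10 genes were measured, and 0 of them were 1.2-fold apart, against 2.96% of measured genes, or 1.1-fold apart, against 16.4%. In a list this small, such counts do not set the genes apart from all genes. The shares over all probe sets also include sets below the floor. Their differences ran from -0.13 (Cacna1f) to 0.068 (Ctbp2), a change of -8.87% to 4.83% in intensity. In total RNA of a whole tissue, fewer cells of a type and less RNA per cell cannot be told apart.

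Within that narrow range, 6 of the 10 genes were below 0 (Bsn, Rims2, Cacna1f, Cacna2d4, Slc17a7 and Cplx4), against 42.4% of all measured genes. The median was -0.070, and that of all measured genes was 0.014. Among the 22 probe sets above the floor 15 were below 0 and 7 above, with a median of -0.046 against 0.016 for all probe sets with 1 symbol above the floor, of which 42.1% were below 0. Each of the 10 genes lay inside the central 95% of measured genes in its class of intensity, where measured genes were split into 4 equal classes. For the brightest class that range ran from -0.16 to 0.17.

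**Figure D1:**
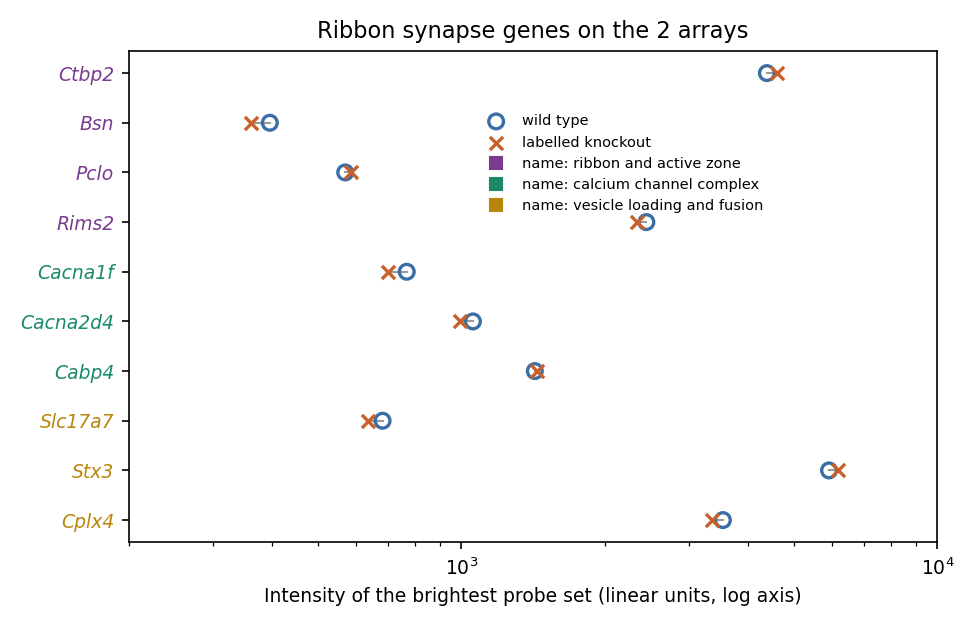
Intensity of the brightest probe set of each of the 10 ribbon synapse genes on the wild-type array (circles) and on the array labelled knockout (crosses), on a log axis, with gene names coloured by role. Each pair of symbols nearly touches: the widest gap, of Cacna1f, is 767 against 699, and levels of different genes are not comparable because each probe set has its own probes.

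Genes of the ribbon and active zone went both ways, 2 above 0 and 2 below. Ctbp2 read 4382 in wild type and 4593 on the array labelled knockout in its brighter probe set, and 2557 and 2666 in the other. Both sets were slightly higher on the array labelled knockout, by 0.068 and 0.060, and differed from each other by 0.0080, less than the technical SD. Which of the 2 Ctbp2 products gave the signal was not analysed here. Its relative Ctbp1, also a co-repressor and outside the 10 genes, differed by 0.020.

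Bsn encodes bassoon, the large scaffold that anchors the ribbon to the presynaptic membrane. It read 396 in wild type and 362 on the other array, and its second set read 137 and 122. These differences, -0.13 and -0.17, had the same sign and were 1.09-fold and 1.12-fold. The third set of Bsn, below the floor, read 31.1 on both arrays. The brightest set stood at percentile 7.50 of the differences of all measured genes.

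Pclo, which encodes the related scaffold piccolo, had the widest spread among its probe sets of the 10 genes. The brightest set read 569.8 and 585, and the dimmest read 111 and 114, differences of 0.038 and 0.045. The middle set read 196 in wild type and 157 on the array labelled knockout, a difference of -0.31, which made it the only set past 1.2-fold. These 3 sets spanned 0.36. Among the 2053 genes that had 3 or more such sets, 62, or 3.02%, spanned as much or more. With the mean of its sets Pclo differed by -0.077, so the sign of the gene depends on how its sets are combined.

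Rims2 encodes RIM2, an active zone protein that binds vesicle-bound RAB3 and regulates calcium channel opening at photoreceptor terminals. Its 3 sets above the floor read 2446 and 2334, 2324 and 2306, and 1836 and 1792.5. All were slightly lower on the array labelled knockout, by -0.068, -0.011 and -0.035, each smaller than the technical SD. The set with the last of these values has a name ending in _s_at, which marks probes shared with other transcripts. The other 2 sets lay below the floor and had opposite signs, reading 83.2 and 92.2 (0.15) and 8.38 and 7.39 (-0.18).

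Of the calcium channel genes, 2 of 3 were below 0, with a median of -0.088. Cacna1f encodes the pore subunit CaV1.4, whose loss causes a form of congenital stationary night blindness in people. It read 767 in wild type and 699 on the other array in its 1 probe set, a difference of -0.13, at percentile 6.92 of measured genes. This was the lowest difference of the 10 genes, and a single probe set gives no check within the array.

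Cacna1f is also the 1 gene of the 10 on the X chromosome, and the pools differed in sex-linked transcripts. Xist, made from the inactive X chromosome of females, read 7055 and 4357 (-0.70), and the Y-linked genes Uty (1.01), Kdm5d (0.88) and Eif2s3y (0.65) were above 0, Uty and Kdm5d from values under the floor in wild type. Over the 361 measured X-linked genes the median was 0.026, against 0.014 over 11169 measured genes on chromosomes other than X and Y. The part of the animals' sex in the value of Cacna1f was not tested.

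Cacna2d4 encodes the auxiliary subunit that the photoreceptor channel needs for its place in the membrane. Its brightest set read 1057 and 995 (-0.088), the second 700.2 and 686 (-0.030) and the third 663 and 616 (-0.10). The 3 sets shared a sign and had an SD of 0.039. Cabp4, the calcium-binding protein that shifts the channel's opening towards the voltage of the photoreceptor in darkness, read 1426 and 1442 in one set and 1274 and 1225 in the other. These differences of 0.017 and -0.057 had opposite signs and neither reached the technical SD. Cabp4 was at -0.020 with the mean of its sets and at -0.00093 once the trend of the difference with intensity was removed.

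**Figure D2:**
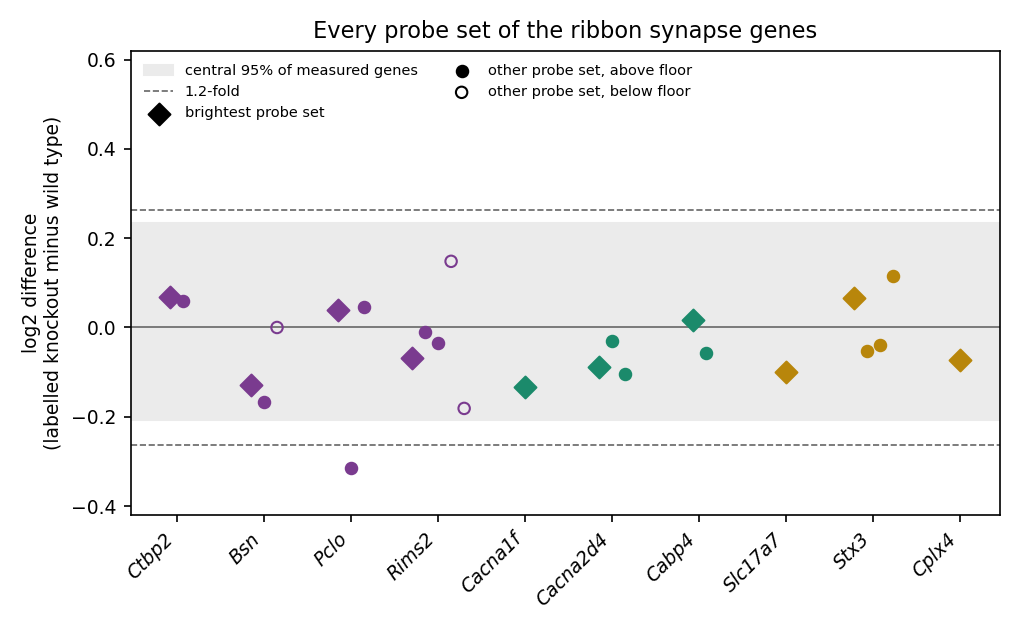
Log2 difference (labelled knockout minus wild type) of all 25 probe sets, by gene and coloured by role; diamonds are the brightest set of a gene, filled circles its other sets above the floor and open circles those below it, the grey band is the central 95% of measured genes (-0.21 to 0.23) and dashed lines mark 1.2-fold. Only the middle set of Pclo, at -0.31, lies outside the dashed lines, and the sets of Pclo, Cabp4 and Stx3 above the floor lie on both sides of 0.

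In vesicle loading and fusion, 2 of 3 genes were below 0 and the median was -0.073. Slc17a7 encodes VGLUT1, the transporter that fills photoreceptor and bipolar vesicles with glutamate. Its 1 set read 683 in wild type and 637 on the array labelled knockout, a difference of -0.10. Cplx4 encodes a complexin of ribbon synapses, a small protein that clamps and promotes vesicle fusion. Its 1 set read 3541 and 3366, a difference of -0.073, within the technical SD.

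Stx3 encodes syntaxin 3, the membrane SNARE protein that ribbon synapses use in place of syntaxin 1. Its brightest set read 5919 and 6193.5 (0.065), and its dimmest read 126 and 137 (0.12). The other sets read 2064 and 1989 (-0.053) and 1086 and 1058 (-0.038). Stx3 is spliced into several forms, and 2 of its sets were above 0 and 2 below, with an SD of 0.081 that is close to the technical SD over all genes. Which form each set reads was not analysed here.

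Taking the sets together, 7 of the 10 genes had several sets above the floor. The sets shared a sign in Ctbp2 (above 0) and in Bsn, Rims2 and Cacna2d4 (below 0), and had both signs in Pclo, Cabp4 and Stx3. Over all 5201 genes with several sets above the floor, 45.5% had sets of both signs. The remaining 3 genes, Cacna1f, Slc17a7 and Cplx4, had a single set each.

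**Figure D3:**
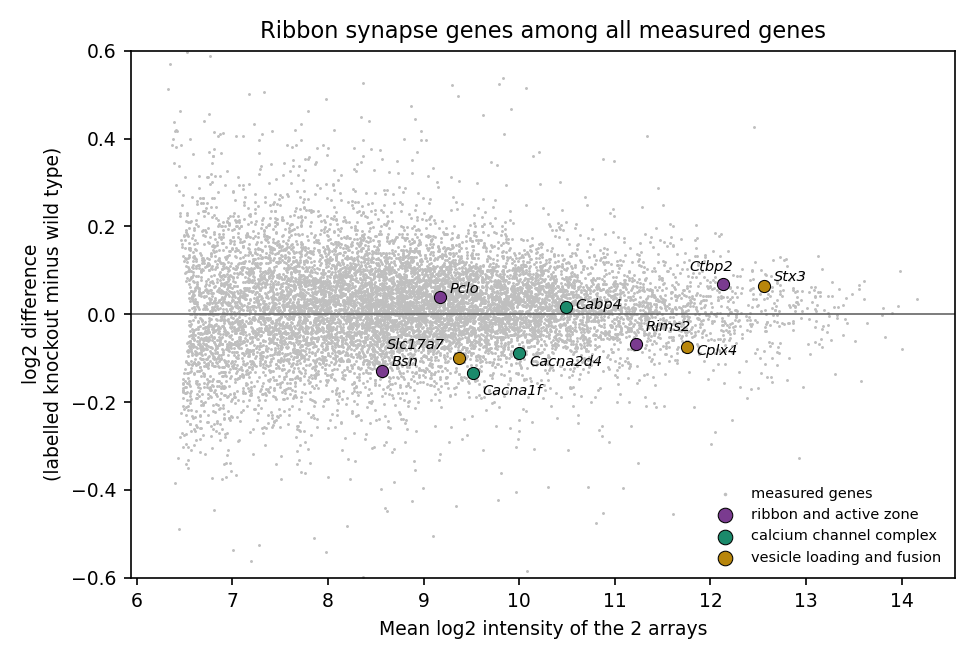
Log2 difference (labelled knockout minus wild type) against mean log2 intensity for the measured genes (grey, with 23 of them outside the plotted range of 0.6 either way) and the 10 ribbon synapse genes coloured by role. The 10 genes lie within the cloud of measured genes, between -0.13 and 0.068.

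Other genes of the synapse were read from lists, described by their counts and medians. Of the 96 genes in the lists of other synaptic genes 83 were measured. Of these, 47 were below 0 and 34 above, with a median of -0.013, where 42.4% of all measured genes were below 0. The same share stands beside the counts below 0 of every list that follows. Of the 83 genes, 1 was at least 1.2-fold lower (Vamp1), against 1.17% of measured genes, and 0 at least 1.2-fold higher, against 1.79%. The other active zone scaffolds had a median of 0, or -0.019 with the mean of probe sets. The 0 is the value of 1 gene whose brightest set read the same on both arrays. Of these scaffolds 15 of 15 were measured, 7 below 0 and 7 above. They held Rims1 (1657 and 1785, 0.11), a relative of Rims2, and Erc1 (157 and 178, 0.18), an ELKS scaffold protein whose other sets reached -0.14. Ppfia2, a liprin of the active zone, differed by 0.075.

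The other channel subunits and calcium-handling genes had 14 measured members, 7 below 0, with a median of -0.0024, or -0.038 with the mean of probe sets over 10 members. Cacna2d3, an auxiliary subunit of the same family as Cacna2d4, read 1457 and 1236 (-0.24), and its relative Cacna2d2 differed by -0.090. Cacna1d, the pore subunit CaV1.3, read 297 on both arrays. Cacna1a, the pore subunit of P/Q-type channels, differed by -0.0049 and the calcium-binding protein gene Cabp2 by 0.062.

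The other vesicle and fusion machinery had 25 measured members, 15 below 0, and a median of -0.020, which was -0.033 with the loess trend removed. Its core SNARE gene Snap25 read 8766 and 8806 (0.0066). The 3 genes of the list with the widest differences were Vamp1, a vesicle SNARE (458 and 370, -0.31), Slc17a6, the VGLUT2 transporter of ganglion cells (1109 and 938, -0.24), and Cplx1, a complexin of conventional synapses (2750 and 2379, -0.21). In Vamp1 and Cplx1 the other sets had the same sign, from -0.34 to -0.31 and from -0.21 to -0.18, while the second set of Slc17a6 was at -0.059. Beside them, markers of ganglion cells, a list that also holds Slc17a6, had 7 of 8 measured members below 0, a median of -0.18 and summed intensities of 15476 and 13511. Nefh, a heavy neurofilament gene, differed by -0.39 and the surface protein gene Thy1 by -0.20. Rbpms differed by -0.060, and Pou4f1, the 1 member above 0, by 0.076. None of these markers was at 0, and their part in the values of Vamp1 and Cplx1 was not tested.

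Genes of vesicle endocytosis, which retrieves membrane after release, numbered 15, of which 12 were below 0, and their median was -0.037, or -0.018 with the mean of probe sets. The dynamin gene Dnm1 differed by -0.072, the endophilin gene Sh3gl2 by -0.095, the second dynamin gene Dnm2 by -0.11 and the endocytic scaffold gene Itsn1 by -0.088; sets of Dnm2 and Itsn1 reached 0.20 and 0.21 on the other side. Genes of the terminal membrane and its partners across the cleft had 6 of 14 below 0 and a median of 0.019, which was 0.043 with the mean of probe sets and 0.0030 with the loess trend removed. Elfn1, an adhesion protein that joins rods to rod bipolar cells, read 726 and 816 (0.17). Egflam, which encodes pikachurin of the cleft, differed by -0.030 and its receptor gene Dag1 by 0.028. Dmd, which encodes dystrophin, differed by 0.073 and the potassium channel gene Kcnma1 by 0.082.

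Markers of the cells that carry these synapses were read beside them. Rod markers had 8 of 11 measured members below 0, a median of -0.027 and summed intensities of 106281 and 104916. They ran from -0.14 (Pde6a, a subunit of the rod phosphodiesterase) to 0.11 (Crx, 6890 and 7436.5), and Gnat1 was at -0.079. Crx, the gene of the photoreceptor transcription factor CRX, is not a marker of rods alone. Cone markers had 5 of 9 below 0, a median of -0.053 and summed intensities of 16852 and 16205, with the opsin genes Opn1mw at -0.28 and Opn1sw at -0.071, the cone transducin gene Gnat2 at -0.16 and the thyroid hormone receptor gene Thrb at -0.15. The 4 cone markers above 0 ran from 0.017 (Arr3, cone arrestin) to 0.12 (Gnb3, a transducin subunit), both named after their values were seen. The difference between the median of the 10 genes and those of these markers was not tested, and the part of photoreceptor content in the values of the synaptic genes was not tested.

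**Figure D4:**
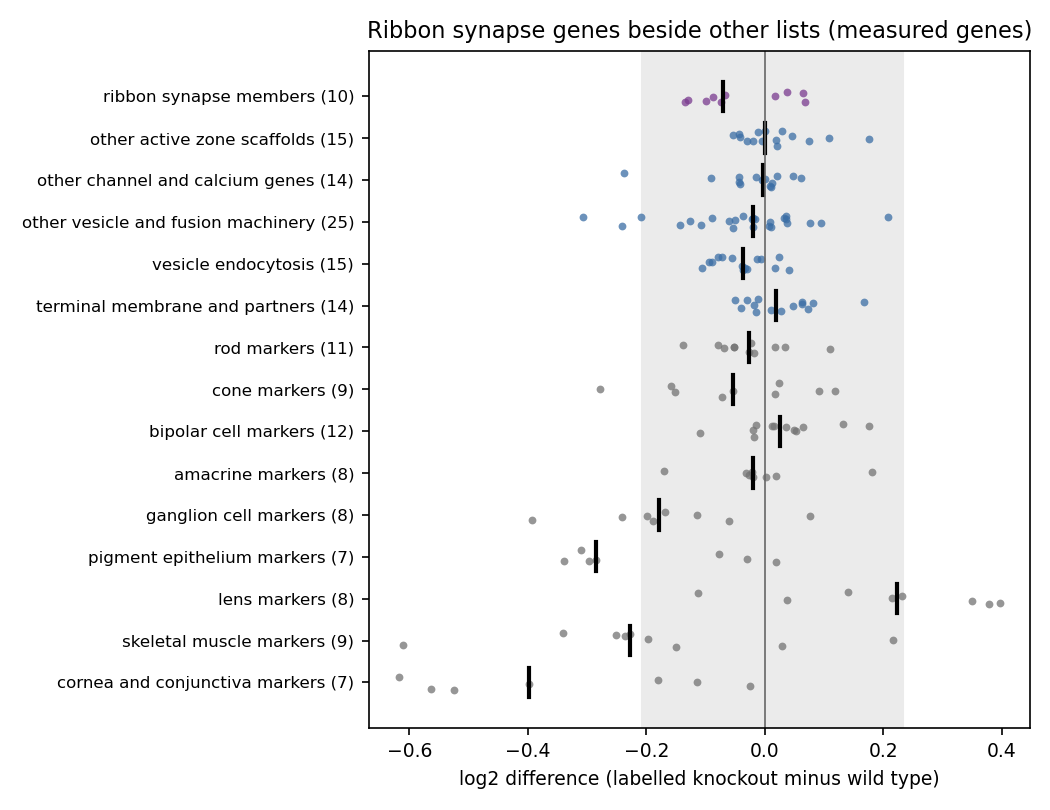
Log2 difference (labelled knockout minus wild type) of each measured gene in the ribbon synapse group, the lists of other synaptic genes and the cell and tissue markers, with the number of measured genes in brackets, a black bar at each median and a grey band for the central 95% of measured genes. The 10 ribbon synapse genes lie between -0.13 and 0.068 with a median of -0.070, while lens markers reach 0.40 and cornea and conjunctiva markers -0.62.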

How the data were processed

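Total RNA of 1 pool of 6 wild-type and 1 pool of 6 Mfsd2a KO eye cups was read on 1 array each. The deposited values are intensities on a linear scale; per the submitters' processing notes the authors used Partek 6.6 and RMA, which corrects background, equalises the arrays' distributions and summarises probes. Order and settings are not given in the sources used here. RMA compresses the differences of dim sets, and any overall difference between pools is lost. That the scale is linear follows from the range of values (5.15 to 20644 in wild type, 5.07 to 20568 in the other, medians over all probe sets, controls included, 94.4 and 93.6), which are not centred. The number of arrays limits the precision.

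Log2 differences were computed with pandas 2.3.3 and numpy 2.4.6 under Python 3.11.15, and the loess trend with statsmodels 0.14.6. The steps were tested on simulated data with shifts larger than any difference of the 10 genes. That test does not show how well differences of their size are recovered. Names came from the platform annotation: 34945 probe sets other than the 64 controls had 1 symbol; overall 932 had several and 9211 none. All 10 Entrez identifiers matched the RefSeq gene table of GRCm38.p6, with 0 symbols changed. The genes and lists were chosen with earlier results of these data known. Every one of the 10 genes is named with all its sets; of each other list the 3 measured genes with the widest difference and the first 2 were open to naming. No set tests were made. Alternatives were other sizes, floors, means of probe sets, leaving out _s_at and _x_at sets, and removing a loess trend (span 0.3, 3 iterations). No scan dates were used here.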

Additional observations from a re-analysis of the deposited data

How the results depend on the processing

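No paired analysis was possible because both genotypes were hybridised once, as 1 pool. None of the 10 genes was 1.2-fold apart with no floor, at a 70th percentile floor or with the mean of probe sets. The same held without _s_at and _x_at sets and with the loess trend removed. In the main setting, 0 genes were apart at 1.1-fold and 1.3-fold, and 0 of 25 probe sets at 1.3-fold and 2-fold. The count at 1.1-fold depends on that setting. With the loess trend removed, Bsn was at -0.148 and Cacna1f at -0.154, both past 1.1-fold. The 6 genes below 0 became 8 with the mean of probe sets and 7 with the loess trend removed, and the median ran from -0.084 to -0.070 over these settings. Of 50 alternative values of single genes, 49 moved by less than the technical SD and 3 changed sign (Pclo once, Cabp4 in 2 settings). The other floors and leaving out _s_at and _x_at sets could not change a value, since each gene kept its brightest set. Only the mean of probe sets and the loess trend moved values of single genes. The counts of genes at 1.3-fold and of sets at 2-fold were fixed by the 0 counts at smaller sizes. Of 25 alternative list medians, 1 moved by more than the technical SD allows for a median. The other channel and calcium-handling genes were at -0.038 with the mean of probe sets, over 10 measured genes in place of 14. That mean takes in sets below the floor, and the floor was then applied to the mean, so fewer genes counted as measured. The part of the lost genes and of the added dim sets in the moved median was not tested. Dim sets carry the least certain differences.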

Other observations

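The cells that receive photoreceptor output were read from the same arrays. Bipolar cell markers had 8 of 12 measured members above 0 and 4 below, and a median of 0.026. Of all measured genes, 42.4% were below 0. Isl1, a transcription factor of ON bipolar cells, read 2895 and 3269 (0.18), and Pcp2, a gene of ON bipolar cells, read 3555 and 3898 (0.13). Trpm1, the cation channel that ON bipolar cells open in light, read 399 and 370 (-0.11), and its sets above the floor ran from -0.21 to -0.11. Gpr179, which holds part of the signalling complex at the same dendrites, differed by 0.053. Of 8 measured amacrine markers 5 were below 0, and their median was -0.020. The transcription factor gene Tfap2a differed by 0.18 and Calb2, which encodes calretinin, by -0.17, while Gad1 and Gad2, which make the transmitter GABA, differed by 0.0019 and -0.031 in their brightest sets and by -0.13 and -0.047 in their other sets.

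The third set of Bsn read exactly the same on both arrays. It was one of 2159 probe sets with equal deposited values, of which 489 lay above the floor.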
